A study of Mus musculus with 4 samples.

Results

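The dioxygenases described here are enzymes that use iron, oxygen and 2-oxoglutarate to hydroxylate or demethylate DNA, histones, RNA and a few other proteins. They were taken by gene symbol on the array annotation: symbols beginning with Tet1, Tet2, Tet3, Kdm2 to Kdm8, Alkbh or Jmjd, with Phf2, Phf8, Fto, Riox1, Riox2 and Hif1an added and the Y-linked Kdm5d and Uty left out. This found 37 of the 18193 genes that have a probe set of 1 symbol, with 97 probe sets among them. One of the 37, Alkbh3os1, is an antisense RNA gene and no enzyme, and the other 36 encode proteins by RefSeq biotype. Jmjd7 also fits the rule, but its probe set carries a second gene symbol, so it has no value of its own.

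MC3T3-E1 is an established clonal line of bone-forming precursor cells, derived from the calvaria of newborn C57BL/6 mice. Total RNA was measured on 4 Affymetrix mouse arrays, 1 per group: osteogenic medium at day 3, normal medium at day 3, osteogenic medium at day 6 and normal medium at day 6. All cells grew in MEM α with 10% fetal bovine serum, and osteogenic medium also held 150 µM ascorbic acid 2-phosphate, a stable form of vitamin C, and 10 mM beta-glycerophosphate, a phosphate donor. Both supplements came together, so a difference between media cannot be told apart between them. On bulk RNA, fewer cells of a type and less RNA per cell cannot be told apart either.

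These enzymes hold a ferrous iron that can be oxidised during the reaction, and ascorbate returns it to the active state. TET proteins oxidise methylated cytosine in DNA, the JmjC histone demethylases remove methyl groups from lysines of histone tails, and the AlkB family, with Fto, removes methyl groups from DNA and RNA bases. A transcript level says nothing of how active the enzyme is, and enzyme activity and the marks themselves were not measured.

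The promoters of 4 members are shown because these genes had some of the larger differences described here, and because members of this family, such as Kdm3a, are known targets of the hypoxia-inducible factors. Each line is the 250 bases upstream of the RefSeq start in GRCm38.p6, 5′ to 3′ on the gene's strand, with the core of the hypoxia-inducible factor motif, ACGTG on either strand, in capitals.
Tet3, chr6:83441679-83441928, minus strand: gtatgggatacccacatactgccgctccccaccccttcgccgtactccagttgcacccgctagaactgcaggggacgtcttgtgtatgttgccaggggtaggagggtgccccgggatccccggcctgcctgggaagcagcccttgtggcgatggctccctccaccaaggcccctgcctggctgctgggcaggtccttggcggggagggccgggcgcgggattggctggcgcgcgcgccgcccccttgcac
Tet1, chr10:62887325-62887574, minus strand: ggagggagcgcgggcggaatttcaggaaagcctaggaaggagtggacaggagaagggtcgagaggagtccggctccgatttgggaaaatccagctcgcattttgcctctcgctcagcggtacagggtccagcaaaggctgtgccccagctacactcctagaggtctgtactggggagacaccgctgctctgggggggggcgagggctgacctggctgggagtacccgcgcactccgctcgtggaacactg
Jmjd6, chr11:116843450-116843699, minus strand: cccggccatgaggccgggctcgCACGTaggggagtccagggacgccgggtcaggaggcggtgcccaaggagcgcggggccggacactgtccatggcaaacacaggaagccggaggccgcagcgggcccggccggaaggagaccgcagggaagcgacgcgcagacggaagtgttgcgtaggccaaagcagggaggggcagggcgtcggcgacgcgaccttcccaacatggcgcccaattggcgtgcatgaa
Kdm7a, chr6:39206774-39207023, minus strand: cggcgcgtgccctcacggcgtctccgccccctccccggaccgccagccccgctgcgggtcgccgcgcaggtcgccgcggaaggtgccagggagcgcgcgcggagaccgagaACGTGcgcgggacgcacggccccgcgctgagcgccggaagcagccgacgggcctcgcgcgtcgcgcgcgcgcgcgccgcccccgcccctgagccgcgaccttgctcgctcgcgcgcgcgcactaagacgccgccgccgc
The letters occur once in the Jmjd6 and Kdm7a windows and in neither the Tet3 nor the Tet1 window. These 4 genes were picked by their values, so their windows cannot relate the motif to direction. None of the Kdm3a windows held the letters. Nor did those of Alkbh1, higher at day 3, and Hif1an, lower at day 6, while that of Riox2, higher at day 6, held them once. RefSeq held 41 promoters for 32 of the members, and 11 of these promoters (26.8%) had the motif, against 5444 of 32851 promoters of all genes (16.6%). The member windows also held more CG dinucleotides, a median of 15 against 6 for all promoters, and the motif itself contains one. A match is a run of letters and not a binding site.

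Signals were brought to a common 75th percentile, and values below 57.8, the pooled median, were set to that floor. A gene was read from its brightest probe set. Of the 37 genes, 35 were above the floor on at least 1 array and 34 on all of them, while Kdm4d, a histone H3 lysine demethylase known from testis, and Alkbh3os1 were at the floor throughout. Tet3 passed through the arrays on which it was brighter. A gene counts as higher or lower from 1.5-fold on. Since each group is a single array, a difference at 1 day has no p-value and no error between cultures. How far probe sets for 1 gene disagree gave a probe error, as a standard deviation of the log2 medium difference, of 0.30 at day 3 and 0.29 at day 6.

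The osteoblast markers Ibsp, Dmp1 and Alpl, genes of bone matrix and mineral, were above the floor on every array. Of 20 other markers on the array, for leukocytes, endothelium, fat and skeletal muscle, 4 were above the floor on at least 1 array. The leukocyte markers Cd14 (144 to 230) and Csf1r (169 to 242) were above it on all 4 arrays. The muscle marker Ckm was above it on 3 and the endothelial Kdr on 1. The defining Ptprc, Pecam1, Adipoq and Myod1 were above it on none. The osteogenic day 6 array stood apart in the 5′ control for 18S ribosomal RNA, with a signal of 746, against 5202 to 9162 on the other arrays; its part in the day 6 results was not tested. The ratio of 3′ to 5′ Gapdh control signals was 0.756 to 0.769 on the 4 arrays.

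At day 3 the largest medium difference among the members was in Tet3, which was lower in osteogenic medium, followed by Jmjd6, which was higher, and Kdm3b, which was lower. Of 35 measured members, 2 were at least 1.5-fold higher (Jmjd6 and Alkbh1) and 2 at least 1.5-fold lower (Tet3 and Kdm3b), 11.4% in all. Among all 11861 genes measured, 15.7% passed 1.5-fold, 8.46% higher and 7.21% lower. With the mean of each gene's probe sets 2 members passed in place of 4, beside 10.4% of all genes, and with the second brightest probe set 5 of 21 passed, beside 17.8%. Tet3 also passed 2-fold, beside 3.57% of all genes, 1.99% higher and 1.59% lower. The members' median log2 difference was -0.040, against 0.0092 over all genes. Within the probe error of 0.30 lay 19 of the 35 members (54.3%), beside 56.5% of all genes.

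At day 6 the members lower in osteogenic medium were Tet3, Tet1 and Hif1an, and those higher were Jmjd6 and Riox2. These 5 of 35 (14.3%) passed 1.5-fold, beside 20.5% of 11901 genes, 11.3% higher and 9.15% lower. With the mean of probe sets 1 member passed, beside 15.3% of all genes, and with unique probe sets preferred 3, beside 21.0%. Tet3 passed 2-fold, beside 6.96% of all genes, 4.18% higher and 2.78% lower. The median was -0.099, against 0.013 over all genes. The 6 proliferation markers on the array, among them Mki67, Rrm2 and Top2a, summed to 13065 in osteogenic and 21343 in normal medium at day 6, and to 31623 in osteogenic and 27739 in normal medium at day 3. All 6 were lower in osteogenic medium at day 6, while at day 3 Mki67 (-0.35) and Top2a (-0.077) were lower and the other 4 higher, with Pcna, at 14429 in osteogenic and 11250 in normal medium, making up most of the gap between the sums. Their part in the members' differences was not tested.

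**Figure D1:**
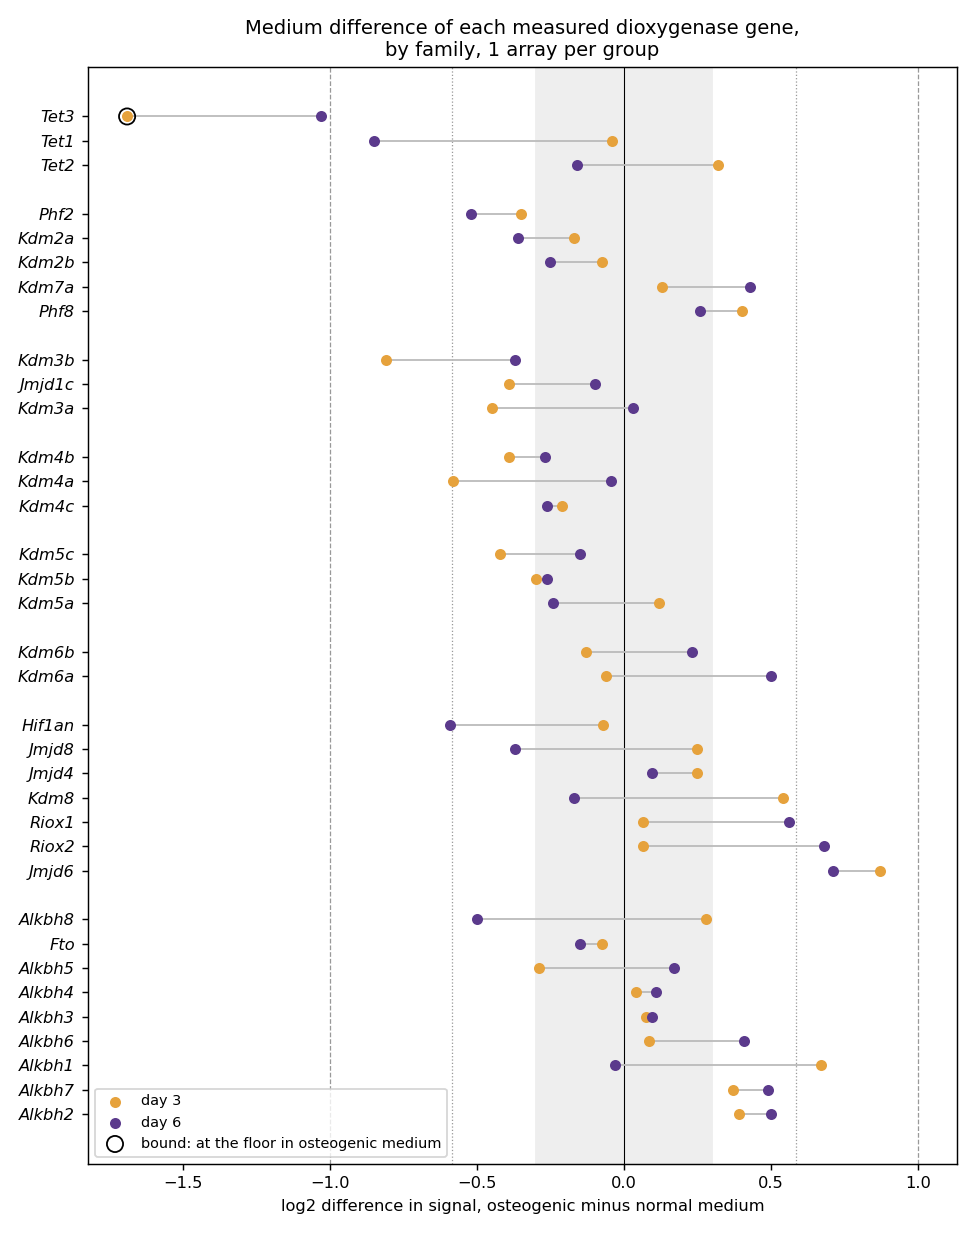
Log2 difference in signal, osteogenic minus normal medium, at day 3 (orange) and day 6 (purple) for the 35 measured members, grouped by family. The grey band is the probe error of 0.30, dotted lines mark 1.5-fold and dashed lines 2-fold; Tet3 and Jmjd6 are past 1.5-fold at both days, on opposite sides.

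The TET enzymes start the removal of DNA methylation by oxidising 5-methylcytosine. At day 3 the signal of Tet3 was 26.1 in osteogenic and 186 in normal medium, and at day 6 it was 81.3 in osteogenic and 166 in normal medium. Both osteogenic arrays lay below both normal arrays. Since the osteogenic day 3 value is under the floor, the difference is a bound, at least 3.22-fold lower (log2 -1.69), and at day 6 it was 2.04-fold lower (-1.03). The gene has 1 probe set, whose signals lie near the floor on the osteogenic arrays, and a floor at the 60th percentile gave log2 differences of -0.64 and -0.47.

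Tet1 had signals of 310 in osteogenic and 318 in normal medium at day 3, which differ by less than the probe error, and 165 (osteogenic) against 298 (normal) at day 6. The osteogenic day 6 array alone was low, 1.81-fold below normal medium (log2 -0.85). The next brightest probe set of Tet1 was lower in osteogenic medium at both days, at -0.69 and -0.73, and the dimmest one above the floor at -0.17 and -0.080. Tet2 had signals of 370 (osteogenic) against 296 (normal) at day 3 and 326 (osteogenic) against 363 (normal) at day 6, log2 differences of 0.32 and -0.16. This probe set lay above zero at day 3 and below it at day 6, short of 1.5-fold. The second Tet2 probe set was above the floor on the osteogenic day 6 array alone, with 89.6 in osteogenic and 38.1 in normal medium at day 6, at least 1.55-fold higher and opposite in sign.

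The KDM3, KDM4 and KDM5 demethylases of histone H3, with Jmjd1c, lay mostly below zero. Kdm3a and Kdm3b, to which Jmjd1c is related, act on the mono- and dimethyl forms of lysine 9. The KDM4 enzymes act on the trimethyl form of lysine 9 and lysine 36, and the KDM5 enzymes on lysine 4. Of 9 measured genes of these families, 8 were below zero at day 3, with a median of -0.39, and 8 at day 6, with a median of -0.24. Over all genes 49% and 48.8% were below zero. The day 6 median of the 9 lay within the probe error of 0.29. With the KDM2, KDM6, KDM7 and PHF genes added, 13 of 16 were below zero at day 3 and 11 at day 6. Their medians were -0.26 and -0.20. Kdm7a (0.13 and 0.43) and Phf8 (0.40 and 0.26), which also act on lysine 9, were above zero at both days. Jmjd1c itself was at -0.39 and -0.099, and its dimmest probe set, at the floor in osteogenic medium at day 3, gave a bound of -0.61. The KDM3, KDM4 and KDM5 families were put together after their values were seen, and 1 of the 9 passed 1.5-fold at day 3 and 0 at day 6.

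Kdm3b had signals of 628 (osteogenic) against 1097 (normal) at day 3, and 750 (osteogenic) against 968 (normal) at day 6. It was 1.75-fold lower at day 3 (log2 -0.81) and 1.29-fold lower at day 6, with both osteogenic arrays below both normal arrays. Its dimmer second probe set had log2 differences of 0.0014 and -0.16. Kdm3a, known to be induced when oxygen is low, had 698 (osteogenic) against 952 (normal) at day 3 and 1159 (osteogenic) against 1134 (normal) at day 6, log2 differences of -0.45 and 0.031. Of the 4 arrays the osteogenic day 3 array was lowest for Kdm3a.

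Kdm4b, another demethylase known to respond to low oxygen, had signals of 396 (osteogenic) against 517 (normal) at day 3 and 435 (osteogenic) against 525 (normal) at day 6, and Kdm4a had 735 (osteogenic) against 1096 (normal) at day 3 and 969 (osteogenic) against 999 (normal) at day 6. At day 3 Kdm4b was at -0.39 and Kdm4a at -0.58, just short of 1.5-fold. At day 6 Kdm4a was at -0.044. Kdm4c had -0.21 at day 3 and -0.26 at day 6, within the probe error.

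Kdm5b, a lysine 4 demethylase, had signals of 885 (osteogenic) against 1090 (normal) at day 3 and 986 (osteogenic) against 1182 (normal) at day 6. The osteogenic arrays were again the lower ones, at -0.30 and -0.26, and the second probe set gave -0.93 and -0.48. Kdm5c had -0.42 and -0.15, and 3 of its 5 other probe sets had the same sign at day 3 and 2 at day 6. Kdm5a had 0.12 and -0.24, and its probe sets disagreed, with 1 of 4 others of the same sign at day 3 and 1 of 3 at day 6, where a dim one was at 0.64.

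Kdm2a and Kdm2b act on lysine 36, while Kdm7a, Phf2 and Phf8 form a related group that acts on lysine 9 among other sites. Phf2, which removes methyl groups from lysine 9, had signals of 1196 (osteogenic) against 1529 (normal) at day 3 and 923 (osteogenic) against 1322 (normal) at day 6. Its differences were -0.35 and -0.52, below 1.5-fold at both days on this probe set. Dimmer probe sets of Phf2 disagreed in size and sign: the second was at -0.022 at day 3 and at least 2.10-fold lower at day 6, and the next was at least 1.94-fold lower at day 3 and at 0.37 at day 6. Phf8 had 604 (osteogenic) against 458 (normal) at day 3 and 672 (osteogenic) against 562 (normal) at day 6, with both osteogenic arrays above the normal array of their day. Kdm2a had -0.17 and -0.36 and Kdm2b -0.073 and -0.25.

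Kdm7a, a demethylase of lysine 9 and lysine 27, had signals of 592 (osteogenic) against 540 (normal) at day 3 and 978 (osteogenic) against 725 (normal) at day 6. The medium difference was 0.13 at day 3 and 0.43 at day 6, and its second probe set gave 0.29 and 0.81. The lysine 27 demethylases Kdm6a and Kdm6b oppose the Polycomb methyltransferase. Kdm6a had 375 (osteogenic) against 391 (normal) at day 3 and 580 (osteogenic) against 411 (normal) at day 6. On this probe set the osteogenic day 6 array was the high one (log2 0.50), with -0.060 at day 3. The second Kdm6a probe set gave 0.34 at day 3 and 0.11 at day 6. Kdm6b, inducible by inflammatory signals, had 1136 (osteogenic) against 1242 (normal) at day 3 and 1426 (osteogenic) against 1214 (normal) at day 6. This brightest probe set was at -0.13 and 0.23, and the second gave -0.50 and 0.21. The dimmest, at the floor in normal medium at day 3 and in osteogenic medium at day 6, gave bounds of 0.45 and -0.56.

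**Figure D2:**
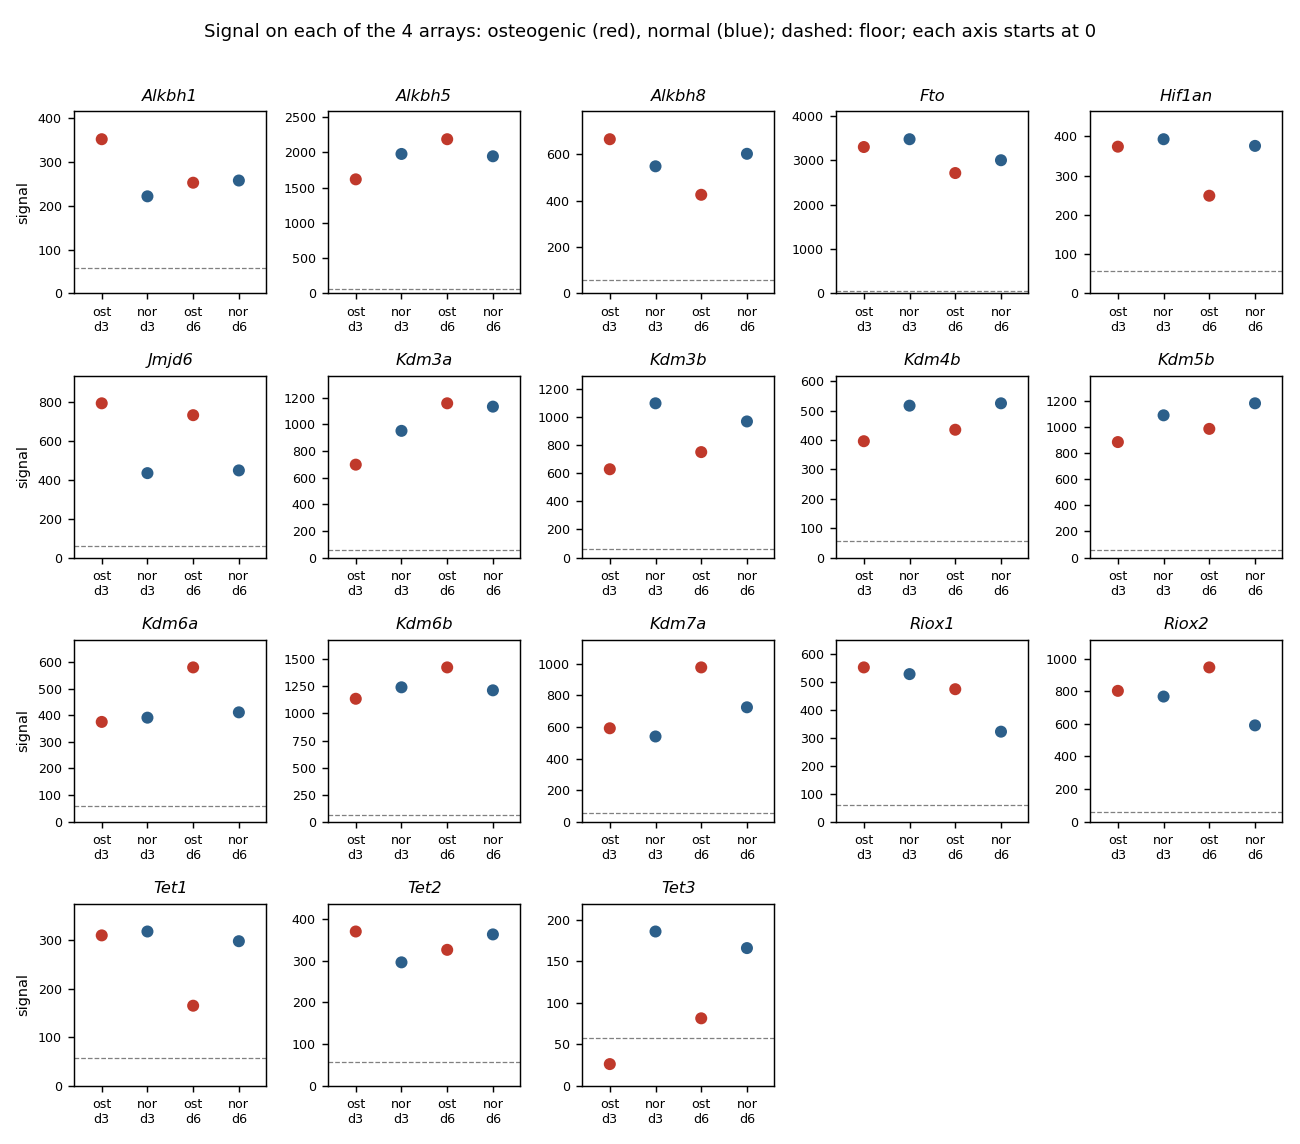
Signal of each of 18 members on the 4 arrays, in the order osteogenic and normal medium at day 3 (d3), then osteogenic and normal medium at day 6 (d6). Each panel has a linear axis from 0, 1 point is 1 array, and the dashed line is the floor of 57.8; for Jmjd6 both osteogenic points lie above both normal points and for Tet3 both lie below.

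A separate branch of the family hydroxylates proteins. Jmjd6, which hydroxylates lysines of splicing factors, had signals of 793 (osteogenic) against 434 (normal) at day 3, and 732 (osteogenic) against 448 (normal) at day 6. Both osteogenic arrays were above both normal arrays, 1.82-fold at day 3 (log2 0.87) and 1.63-fold at day 6 (0.71). The second probe set gave 0.65 at day 3 but 0.071 at day 6, so the later difference rests on 1 probe set.

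Riox1 and Riox2 hydroxylate histidines of ribosomal proteins, and Riox1 is also known in mouse osteoblasts as a partner that restrains the transcription factor Sp7. Riox2 had signals of 803 (osteogenic) against 768 (normal) at day 3 and 947 (osteogenic) against 591 (normal) at day 6, 1.60-fold higher (log2 0.68). The other 3 probe sets of Riox2 were also higher in osteogenic medium at both days, by 0.35 to 0.90 at day 3 and 0.23 to 0.52 at day 6. Riox1 had 552 (osteogenic) against 528 (normal) at day 3 and 474 (osteogenic) against 322 (normal) at day 6. The normal day 6 array was the lowest of the 4 for both genes, and the day 6 difference of Riox1 was 0.56.

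Hif1an hydroxylates an asparagine of the hypoxia-inducible factors and so limits their activity when oxygen is present. It had signals of 374 (osteogenic) against 393 (normal) at day 3 and 249 (osteogenic) against 376 (normal) at day 6. The osteogenic day 6 array was low, 1.51-fold below normal medium (log2 -0.59), while the other 3 arrays lay close together. Its second probe set, near the floor, gave -0.10 at day 6. Kdm8, an arginine hydroxylase, had 174 (osteogenic) against 120 (normal) at day 3 and 136 (osteogenic) against 153 (normal) at day 6, differences of 0.54 and -0.17, on 1 probe set. Jmjd4, which hydroxylates a translation release factor, had 0.25 and 0.097, and Jmjd8, a JmjC protein of the endoplasmic reticulum, 0.25 and -0.37.

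The AlkB homologues and Fto act on nucleic acids, apart from a few that act on proteins. Of these 9 measured genes, 7 were above zero at day 3 and 6 at day 6, with medians of 0.086 and 0.11. Over all genes 51.0% and 51.2% were above zero. Both medians lay within the probe error, 0.30 at day 3 and 0.29 at day 6. Fto and Alkbh5, the enzymes that remove N6-methyladenosine from messenger RNA, stayed short of 1.5-fold on their brightest probe sets. Fto had signals of 3303 (osteogenic) against 3479 (normal) at day 3 and 2716 (osteogenic) against 3005 (normal) at day 6, and Alkbh5 had 1618 (osteogenic) against 1978 (normal) at day 3 and 2187 (osteogenic) against 1945 (normal) at day 6. For Alkbh5 the differences, -0.29 and 0.17, had opposite signs within the probe error, and its second probe set gave 0.026 and 0.046. For Fto the differences were -0.075 and -0.15, where the dimmer second probe set of Fto gave -0.33 and -0.60.

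Alkbh2, which repairs alkylated DNA, had signals of 267 (osteogenic) against 203 (normal) at day 3 and 313 (osteogenic) against 221 (normal) at day 6, with both osteogenic arrays above both normal arrays. Alkbh7, a mitochondrial member, had 868 (osteogenic) against 674 (normal) at day 3 and 977 (osteogenic) against 697 (normal) at day 6, again with both osteogenic arrays higher. Neither gene reached 1.5-fold, at 0.39 and 0.50 for Alkbh2 and 0.37 and 0.49 for Alkbh7, each on 1 probe set. Alkbh1, which acts on transfer RNA and DNA, had 351 (osteogenic) against 221 (normal) at day 3, 1.59-fold higher, and 252 (osteogenic) against 257 (normal) at day 6. The osteogenic day 3 array was the high one of the 4 on this probe set. The dimmer second probe set of Alkbh1 gave 0.41 at day 3, short of 1.5-fold, and 0.28 at day 6.

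Alkbh8, which modifies the wobble uridine of transfer RNA, had 666 (osteogenic) against 549 (normal) at day 3 and 426 (osteogenic) against 603 (normal) at day 6, differences of 0.28 and -0.50. Its dimmer second probe set had the opposite sign at both days, at least 2.92-fold lower at day 3 and at 0.40 at day 6. On their brightest probe sets Alkbh3 and Alkbh4 lay between 0.040 and 0.11 at both days, and Alkbh6 at 0.086 and 0.41. The second probe set of Alkbh3 gave 0.39 and 0.24. The others of Alkbh4 gave 0.011 and -0.38 at day 3 and -0.27 and -0.051 at day 6.

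**Figure D3:**
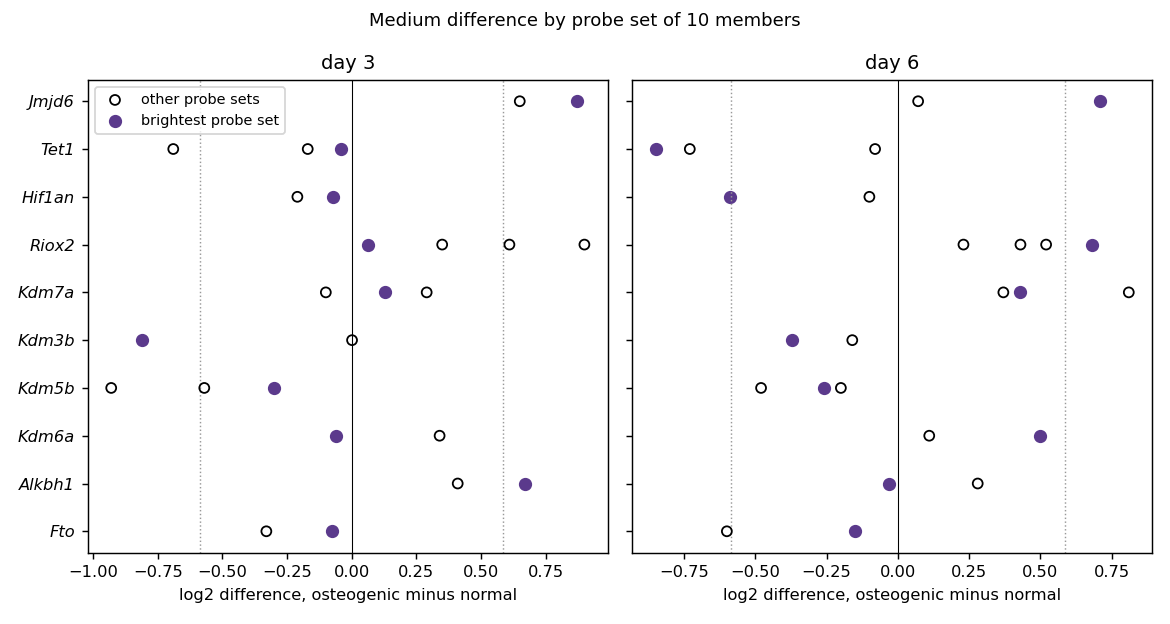
Log2 medium difference at day 3 (left) and day 6 (right) for each probe set above the floor of 10 members, with the brightest probe set filled and the others open. Dotted lines mark 1.5-fold; the Riox2 probe sets lie on 1 side of zero at both days, while the second Jmjd6 probe set is near zero at day 6.

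The differences at day 3 and day 6 come from separate pairs of arrays. Of 35 members, 11 were above zero at both days, 14 below zero at both and 10 of opposite sign, so 71.4% had the same sign, beside 62.7% of 11259 genes measured at both days. The median of the day 6 minus the day 3 medium difference was 0.040 for members and -0.012 for all genes. Over the 11259 genes the change was at least 1.5-fold upward in 1390 and downward in 1156. Among the 35 members it was upward in 2, Tet3 (0.66) and Riox2 (0.62). It was downward in 5, Tet1 (-0.81), Alkbh8 (-0.78), Alkbh1 (-0.70), Kdm8 (-0.70) and Jmjd8 (-0.62). These 7 were named after their values were seen, and the change of Tet3 starts from a value at the floor. The change has no test, since no residual is left.

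**Figure D4:**
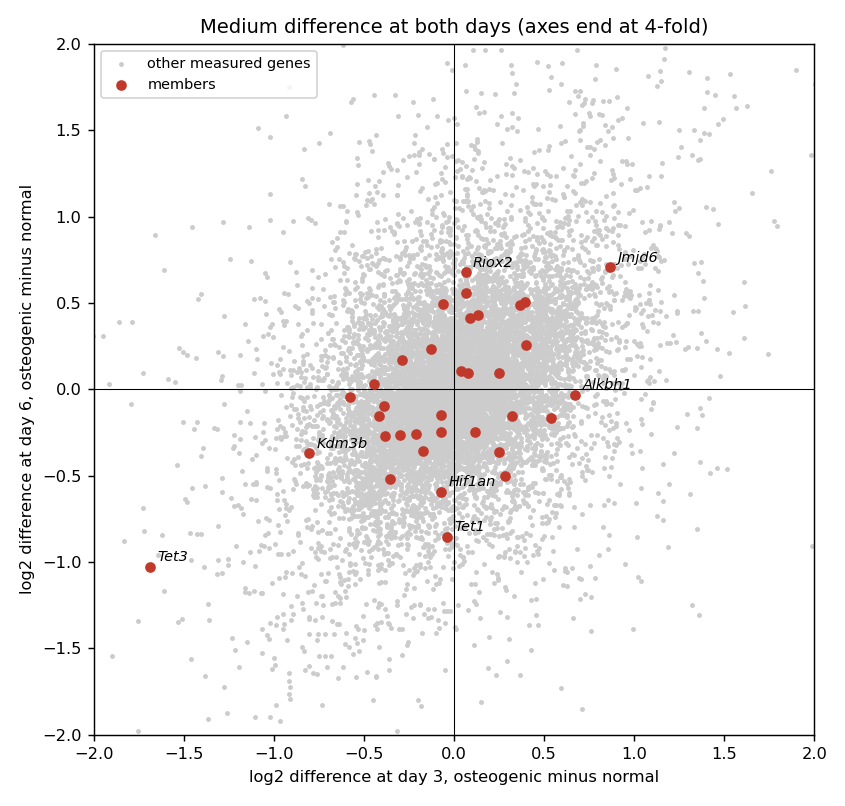
Log2 medium difference at day 3 (horizontal) against day 6 (vertical) for the 35 measured members (red) and the other genes measured at both days (grey), with axes ending at 4-fold. Members past 1.5-fold at either day are named; Tet3 lies at the lower left and Jmjd6 at the upper right.

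The medium was tested over both days by a fit of medium and day to the 4 arrays, which leaves 1 residual degree of freedom. Nothing says that the samples were separate cultures, so the fit measures only the spread between these arrays. By limma with Benjamini-Hochberg adjustment, 0 of 12503 genes (0%) passed an adjusted p of 0.05, although 1737 had an unadjusted p under 0.05. Among the 35 members 0 passed and 3 had an unadjusted p under 0.05. Tet3 had an adjusted p of 0.217 in limma. Its fitted log2 difference of -1.36 (SE 0.23) uses the floor for the osteogenic day 3 value, so both numbers depend on where the floor is set. Jmjd6, at 0.79 (SE 0.18), had 0.242 and Kdm3b, at -0.59 (SE 0.20), had 0.328. With each gene's own variance the lowest adjusted p among members was 0.734, and over all alternatives it ranged from 0.193 to 0.734.

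In normal medium, of 35 members, 0 were at least 1.5-fold higher at day 6 than at day 3 and 1, Riox1, was lower, with signals of 322 at day 6 and 528 at day 3 (log2 -0.71). All genes passed 1.5-fold in 7.89% of cases, 4.05% higher and 3.84% lower. The highest member was Kdm7a, with 725 at day 6 and 540 at day 3 (0.43). Its dimmer probe sets above the floor gave 0.62 and 0.69, both past 1.5-fold. Within the probe error of 0.27 lay 26 of 35 members (74.3%), beside 67.3% of all genes. With neither floor nor filter 3 of 37 members passed, beside 32.7% of all genes. At 2-fold 0 members passed, beside 1.48% of all genes, 0.741% higher and 0.741% lower.

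In osteogenic medium Kdm3a, Kdm7a and Kdm6a were at least 1.5-fold higher at day 6 than at day 3, and Tet1 and Alkbh8 were lower. Kdm3a had a signal of 1159 at day 6 and 698 at day 3 (log2 0.73), Kdm7a had 978 at day 6 and 592 at day 3 (0.72), and Kdm6a had 580 at day 6 and 375 at day 3 (0.63). Tet1 had 165 at day 6 and 310 at day 3 (-0.91), and Alkbh8 had 426 at day 6 and 666 at day 3 (-0.65). The other probe sets of Kdm7a gave 1.14 and 1.16, while the second of Alkbh8 gave 1.49, opposite to the first, and that of Kdm6a 0.12. Those of Tet1 gave -0.28 and -0.57, both short of 1.5-fold. Among all genes 19.3% passed 1.5-fold, 10.8% higher and 8.49% lower, beside 14.3% of the members. With the mean of probe sets 2 members passed in place of 5, beside 14.0% of all genes. At 2-fold 0 members passed, beside 6.32% of all genes, 3.70% higher and 2.62% lower. The proliferation markers had a summed signal of 13065 at day 6 and 31623 at day 3 in this medium, and their part was not tested. Comparisons between days share their arrays with those between media.

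**Figure D5:**
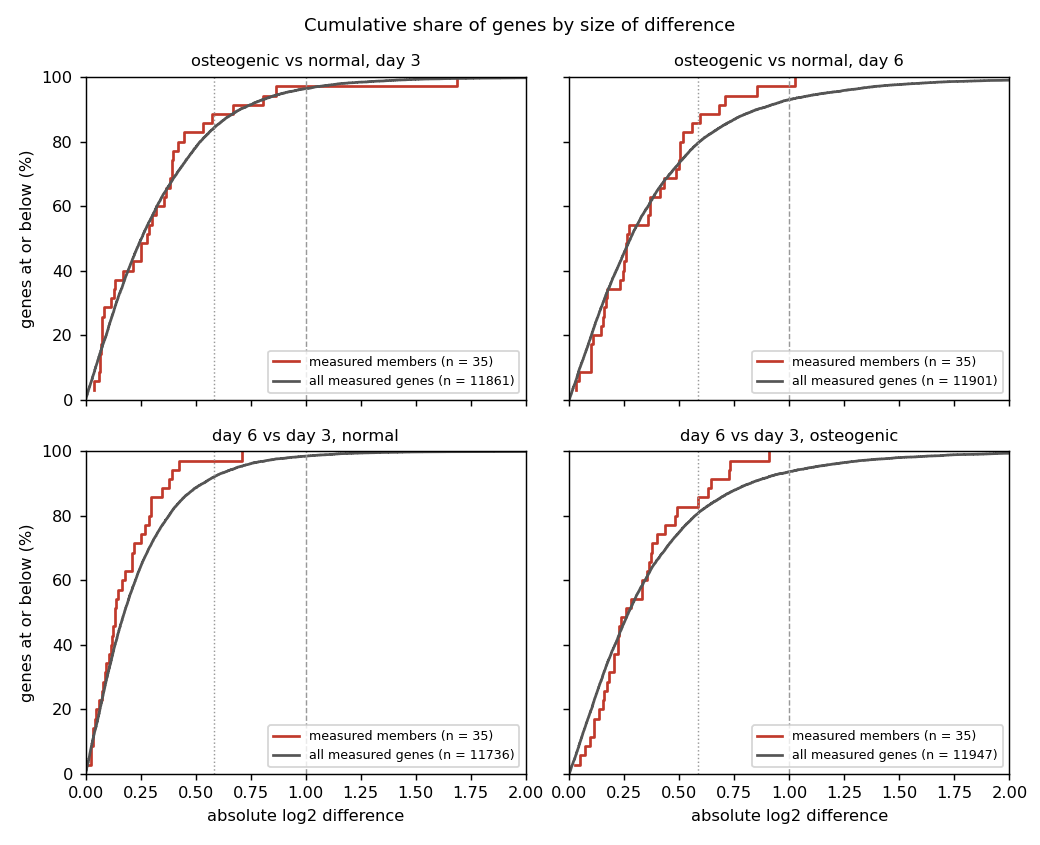
Cumulative share of genes, in percent, by the absolute log2 difference in 4 comparisons, for the 35 measured members (red) and all measured genes (grey). Dotted and dashed lines mark 1.5-fold and 2-fold; in both panels of medium the 1 member past 2-fold is Tet3, and no member is past it in the panels of time.

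Over the 4 arrays the highest member signal was a median of 1.45 times the lowest, against 1.42 for all 12503 genes. Of the 35, 21 (60%) varied by less than 1.5-fold over all arrays, beside 59.2% of all genes. Among them 1, Tet3, varied by 2-fold or more (2.86%), beside 14.1% of all genes.

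Genes that carry or recycle ascorbate were set beside the family, since it was added here. Values after "at" in this and the following comparisons are log2 medium differences, day 3 before day 6 where both are given. The list counts are to be read beside the 15.7% of all genes past 1.5-fold at day 3 and the 20.5% at day 6. Slc23a2, the sodium-dependent ascorbate transporter, had signals of 470 (osteogenic) against 797 (normal) at day 3 and 820 (osteogenic) against 908 (normal) at day 6, log2 differences of -0.76 and -0.15, while Slc23a1 was at the floor throughout. The glucose transporters Slc2a1 and Slc2a3, which also carry dehydroascorbate, had differences of -0.050 and 1.39 at day 3 and 1.20 and 1.63 at day 6. Gsto1, which can reduce dehydroascorbate, was at 0.20 and 0.80. Of the 4 measured genes, 1 was higher and 1 lower by 1.5-fold at day 3, and 3 higher and 0 lower at day 6, beside 15.7% and 20.5% of all genes, and 4 genes are too few for a share to be read.

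Of 18 measured genes that make or use 2-oxoglutarate and its competitors succinate, fumarate and 2-hydroxyglutarate, 1 was higher and 0 lower at day 3 (Ogdh, 0.59) and 1 higher at day 6 (the aspartate aminotransferase gene Got1, 1.26), with medians of 0.091 and -0.13. D2hgdh, which removes 2-hydroxyglutarate, was at -0.54 and -0.58, and Sdha, a subunit of succinate dehydrogenase, at -0.49 and -0.43. Other 2-oxoglutarate oxygenases had 1 of 23 higher and 4 lower at day 3 (21.7%, beside 15.7% of all genes) and 4 of 22 higher and 1 lower at day 6 (22.7%, beside 20.5%). The prolyl hydroxylase gene P4ha1 was at -0.86 and -0.19, P4ha2 at 0.31 and 1.34, Asph at -0.42 and -1.04 and Asphd2 at 0.78 and 0.92.

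The enzymes that place the marks were also set beside those that remove them. Of 30 measured DNA and histone methyltransferases and their partners, 0 were higher and 1 lower at day 3 (Dnmt3a, -0.67), and 1 was higher and 5 lower at day 6, with medians of -0.017 and -0.13. Their shares past 1.5-fold were 3.33% at day 3, beside 15.7% of all genes, and 20.0% at day 6, near the 20.5% of all genes. The maintenance methylation genes Uhrf1 and Dnmt1 were at -1.29 and -0.75 at day 6, beside the lower proliferation markers given above, and Dnmt3b was at 0.72. Kmt2a, a lysine 4 methyltransferase, was at -0.51 and -0.76. Among 15 N6-methyladenosine writers and readers, 1 was higher at day 3, Mettl14 (0.77), and 0 passed 1.5-fold at day 6, where Mettl14 was at -0.48. Of 7 flavin-dependent demethylases and partners, Rcor3 was lower at day 3 (-0.66) and Rcor2 higher at day 6 (0.76), while the demethylase Kdm1a itself was at 0.21 and 0.12.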

How the data were processed

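Total RNA of 4 samples, 1 per medium and day, was hybridised to Affymetrix mouse arrays as biotin-labelled cRNA, per the labels' protocols. The authors deposited 1 linear intensity per probe set and array, with array medians from 56.9 to 59.0. How probes were summarised and scaled is not given in the sources used here. Precision is limited by having 4 arrays.

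Of 45101 probe sets, 64 were controls, 34945 had 1 gene symbol, 932 several and 9160 none. All 37 members matched RefSeq of GRCm38.p6 by Entrez ID and 0 symbols differed. Arrays were shifted to a common 75th percentile, with factors from 0.988 to 1.02. Values under the pooled 50th percentile were set to it, log2 was taken, and the probe set with the highest mean stood for its gene. Genes at the floor on both arrays of a comparison were left out of it. Fold changes are given with no p-value at a single day. The probe error is the standard deviation of the difference between a gene's brightest probe sets, divided by the square root of 2. Medium over both days was tested with limma 3.58.1 in R 4.3.3. Simulated data with known fold changes checked the size of the recovered differences, and not how many genes the test can call. Full values are given for members past 1.5-fold in any comparison and for a fixed set of others. Of each other list, up to 4 members with the largest medium differences are named, and a few more were named after their values were seen. Alternatives covered scaling, floor, filter, probe set and the fit. The members and lists were chosen with earlier results of these data known.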

Additional observations from a re-analysis of the deposited data

How the results depend on the processing

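With 1 array per group, no replicate could be left out. No paired analysis was possible because the replicate number 1 was given to each group here and the labels pair no samples by it. The fit of medium and day does compare the media within each day, and with day left out of it 0 genes passed as well, with a lowest adjusted p of 0.247 in limma. Scaling, floor, filter and the choice of probe set were varied in turn. The number of members past 1.5-fold was 2 at day 3 with the mean of probe sets (10.4% of all genes), against 4 in the report (15.7%). At day 6 it was 1 with the mean of probe sets (15.3%) and 3 with unique probe sets preferred (21.0%), against 5 (20.5%). Between days it was 2 when the floor was the 40th percentile (12.5%), 3 with neither floor nor filter (32.7%) and 2 with the second brightest probe set (11.2%) in normal medium, against 1 (7.89%), and 2 with the mean of probe sets (14.0%) in osteogenic medium, against 5 (19.3%). The members' median log2 difference lay between -0.12 and -0.00011 at day 3 and between -0.12 and -0.027 at day 6 over all settings. Kdm3b at day 3 turned to 0.0014 with its second brightest probe set. Alkbh8 between days in osteogenic medium turned to 0.42 with the mean of probe sets and to 1.49 with the second brightest. In the fit of medium over both days, 4 of 5983 genes passed an adjusted p of 0.05 in limma with the second brightest probe set, against 0, and 0 members passed in any setting. The cause of these changes was not tested.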

Other observations

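A probe set shared by Jmjd7 and Gm28042 had signals of 534 (osteogenic) against 458 (normal) at day 3 and 548 (osteogenic) against 495 (normal) at day 6, log2 differences of 0.22 and 0.15. A probe set shared by Kdm6b and 1700064E03Rik had 143 (osteogenic) against 163 (normal) at day 3. At day 6 it had 153 (osteogenic) against 238 (normal), with log2 differences of -0.19 at day 3 and -0.64 at day 6. Among the probe sets of Kdm6b alone, the brightest was at -0.13 and 0.23 and the dimmest gave bounds of 0.45 and -0.56. Among members with other probe sets above the floor, 28 of 40 further probe sets had the sign of the brightest one at day 3 and 25 of 37 at day 6.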
